A study of Mus musculus with 10 samples.

Results

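Hepatic mRNA was measured for 9 interferon-stimulated genes, Stat2, Irf7, Irf9, Ifit1, Ifit3, Isg15, Oasl2, Ifi44 and Usp18. The genes were taken by symbol, with earlier results of these data known, and are 9 of the 24421 genes listed in the count table. A filter on low counts left 11092 genes for testing, and all 9 were among them. RNA-seq was performed on liver from 10 male C57BL/6 mice, aged 21 weeks by the labels, with free access to food. The Chow group of 5 mice ate chow alone. The TM5614 group of 5 mice ate the same chow with TM5614, an orally active inhibitor of plasminogen activator inhibitor 1 (PAI-1), mixed in at 20 mg/kg/day for 10 days. The labels name no infection, interferon or genetic change in either group, and the drug was taken with feed, so the dose is nominal. Each mouse gave 1 library of whole liver, and p-values therefore measure the spread between animals.

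Type I interferons bind the receptor made of IFNAR1 and IFNAR2, and the kinases JAK1 and TYK2 at that receptor then phosphorylate transcription factors that include STAT2. STAT2 and IRF9 are subunits of the ISGF3 complex, which binds interferon-stimulated response elements in the promoters of antiviral genes. The genes of this set cover that route, with Stat2 and Irf9 as subunits of ISGF3, Irf7 as the factor that amplifies interferon production, Ifit1, Ifit3, Oasl2, Isg15 and Ifi44 as induced effectors, and Usp18 as the brake that removes ISG15 from proteins and restrains signalling at IFNAR2.

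Promoter sequence from RefSeq (GRCm38.p6, the assembly also called mm10) was found for 8 of the 9 genes. Both strands of the 250 bases before each start site were searched for 2 copies of GAAA with 2 bases of any kind between them, which read as 2 copies of TTTC on the other strand. This repeat is the core of the interferon-stimulated response element. Of all 32851 promoter windows, 978 held it, or 2.98%, and of the windows of tested genes 2.62% did. Of the 8 genes of the set with a window, 4 held a match (Ifit1, Ifit3, Isg15 and Stat2). These 4 are shown because they hold the letters of that core, together with Rsad2, an antiviral gene described further on, and a match describes the sequence and is no measured binding site. Each is printed 5′ to 3′ on the strand of its gene, with matches in capitals, and none of the stretches lay in an annotated exon.
Isg15, chr4:156200860-156200911, minus strand: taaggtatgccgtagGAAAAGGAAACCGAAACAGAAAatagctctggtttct
Stat2, chr10:128270261-128270300, plus strand: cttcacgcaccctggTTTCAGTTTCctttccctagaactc
Ifit3, chr19:34583358-34583431, plus strand: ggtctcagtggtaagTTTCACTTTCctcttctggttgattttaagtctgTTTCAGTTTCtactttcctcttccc
Ifit1, chr19:34640770-34640828, plus strand: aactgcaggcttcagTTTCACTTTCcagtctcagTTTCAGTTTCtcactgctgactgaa
Rsad2, chr12:26456548-26456587, minus strand: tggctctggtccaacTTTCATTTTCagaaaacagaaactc

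The capitals of Isg15 hold 3 overlapping matches, which begin 78, 72 and 66 bases before the start site. Ifit3 held 2 matches, beginning 156 and 122 bases before its start, and Ifit1 held 2, beginning 104 and 85 bases before. The single match of Stat2 began 222 bases before its start and that of Rsad2 120 bases before. The letters were not matched in the windows of Irf7, Irf9, Oasl2 and Ifi44, which says only that this spelling was not in these 250 bases.

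By the GENCODE annotation of GRCm38 (release M21), all 9 are protein-coding genes. Ifit3 (34583531-34588731, plus strand) and Ifit1 (34640871-34650009, plus strand) lie near each other on chromosome 19. Stat2 lies on chromosome 10 at 128270559-128292849 (plus strand), Irf7 on chromosome 7 at 141262706-141266481 (minus strand) and Irf9 on chromosome 14 at 55603571-55610030 (plus strand). Isg15 lies on chromosome 4 at 156199424-156200818 (minus strand), Oasl2 on chromosome 5 at 114896936-114912234 (plus strand), Ifi44 on chromosome 3 at 151730922-151749960 (minus strand) and Usp18 on chromosome 6 at 121245906-121270917 (plus strand).

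The libraries held between 6398335 and 10874955 counts on genes. Markers of hepatocytes were present throughout, with 134606 to 145758 summed CPM (counts scaled for library size) over 10 markers in Chow and 113804 to 132834 in TM5614. The sum was thus lower in every TM5614 library than in any Chow library. By edgeR 0 of the 10 passed, and their median log2 fold change was -0.15. Ttr, 1 of the 10, was called lower by DESeq2, limma-voom, and edgeR without Chow replicate 2 or after correction for GC content and length. The bearing of this difference on other genes was not tested. Chow replicate 2 stood apart, since GC content and transcript length accounted for 45.9% of the spread of its genes about their medians over all libraries, against 0.727% to 11.3% in the other 9 libraries. TM5614 replicate 2 carried 35296 counts on 12 skeletal muscle genes, against 101 to 816 in the others. Leaving out either library changed some calls and moved some values markedly, and the main ones, though not all, are given without it.

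Usp18 was the only gene of the 9 that passed an adjusted p of 0.05, higher in TM5614 and just under the threshold (edgeR adjusted p = 0.0482). Its call was lost in 7 of the 10 fits without a single library. Of all 11092 genes tested by edgeR's quasi-likelihood test with Benjamini-Hochberg adjustment, 499 passed in either direction, or 4.5%, and 1.73% were higher in TM5614. The share of the 9 was 11.1%, which rests on 1 gene. Estimates lay above 0 for 8 of the 9 genes, against 51.5% of all genes tested, and their median log2 fold change was 0.31, against 0.01 for all genes. An unadjusted p under 0.05 was reached by 4 of the 9 (Usp18, Oasl2, Ifit1 and Ifi44), all higher in TM5614, against 20.4% of all genes in either direction and 8.69% in that direction. Limma-voom with sample quality weights called 2 of the 9, Usp18 and Oasl2, and so did edgeR without Chow replicate 2 and TM5614 replicate 2, while edgeR without a filter on low counts called 0. Over all genes those settings called 12.5%, 11.1% and 2.13%. DESeq2 (8.11% of all genes) and edgeR without Chow replicate 2 (9.24%) called 1 of the 9, Usp18, so the members' count did not always follow the total.

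**Figure D1:**
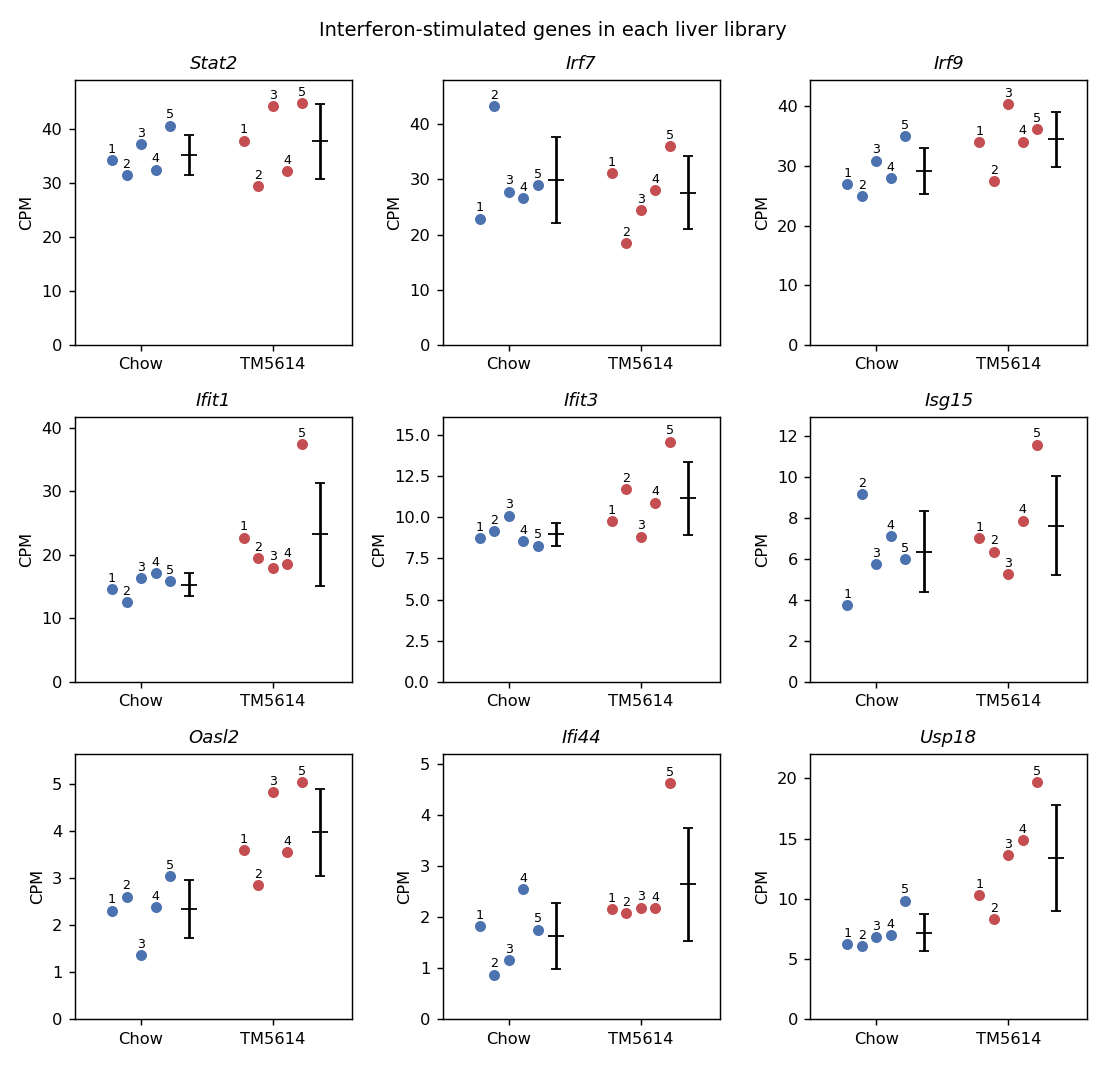
Each panel plots TMM-normalised CPM of 1 gene on a linear axis from 0, with a numbered point for each library of the 5 Chow (blue) and 5 TM5614 (red) mice and the mean with SD beside it. Usp18 ran from 6.08 to 9.84 CPM in Chow and from 8.31 to 19.7 CPM in TM5614, and only the panel of Ifit1 shows no overlap between the groups.

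The subunits of ISGF3 showed small differences. Stat2, which carries the transactivation domain of the complex, measured 34.3, 31.5, 37.3, 32.5 and 40.7 CPM in Chow replicates 1 to 5 and 37.9, 29.5, 44.3, 32.2 and 44.8 CPM in TM5614 replicates 1 to 5. Both the lowest and the highest library belonged to TM5614, and the groups overlapped. The means were 35.3 ± 3.73 CPM in Chow and 37.7 ± 6.91 CPM in TM5614 (SD, n = 5 each), and the difference was 0.10 ± 0.14 on the log2 scale (SE), with 0.714 as the edgeR adjusted p. Irf9, the DNA-binding subunit, gave 26.9, 24.9, 30.9, 28.0 and 35.0 CPM in Chow and 34.0, 27.5, 40.4, 34.1 and 36.2 CPM in TM5614. Only TM5614 replicates 3 and 5 exceeded the highest Chow library. The log2 fold change of Irf9 was 0.24 ± 0.13 (SE), and it did not pass the test (edgeR adjusted p = 0.325).

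Irf7 was the only gene of the set with an estimate below 0. Its levels were 22.9, 43.3, 27.8, 26.6 and 29.0 CPM in Chow and 31.2, 18.4, 24.4, 28.1 and 36.0 CPM in TM5614. The highest value came from Chow replicate 2 and the lowest from TM5614 replicate 2, the same libraries that stood apart in GC content and in muscle genes. On the log2 scale TM5614 differed from Chow by -0.12 ± 0.20 (SE), and the edgeR adjusted p was 0.765. Without Chow replicate 2 it was 0.05, and after correction for GC content and length it was 0.04, so no direction can be given for Irf7.

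Among the effectors, Ifit1 had the only groups that did not overlap. Ifit1, which binds viral RNA that lacks the host cap, measured 14.6, 12.5, 16.3, 17.1 and 15.9 CPM in Chow and 22.7, 19.5, 18.0, 18.5 and 37.4 CPM in TM5614. Every TM5614 library lay above every Chow library, as it did for 4.07% of all genes tested (8.93% had no overlap in either direction), but TM5614 replicate 5 lay far above the other 4. The means were 15.3 ± 1.79 and 23.2 ± 8.12 CPM (SD, n = 5 each), and the log2 fold change was 0.61 ± 0.20 (SE), which did not pass the test (edgeR adjusted p = 0.12). Without TM5614 replicate 5 the estimate was 0.36, with an edgeR adjusted p of 0.218.

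Ifit3, a partner of Ifit1 in the same family, gave 8.73, 9.16, 10.1, 8.56 and 8.28 CPM in Chow and 9.76, 11.7, 8.83, 10.9 and 14.6 CPM in TM5614. TM5614 replicates 2, 4 and 5 were above the highest Chow library, and the other 2 lay within the Chow range. Its difference of 0.31 ± 0.15 on the log2 scale (SE) did not pass, with an edgeR adjusted p of 0.271. Of the 75-base stretches of Ifit3 transcripts, 41.1% also occurred in the near-identical gene Ifit3b, and 5.19% of those of Ifit1 occurred in Ifit1bl2, so the level of Ifit3 in particular depends on how reads common to both copies were assigned. Ifit3b itself measured 2.15 ± 0.637 CPM in Chow and 2.88 ± 0.906 CPM in TM5614 (SD, n = 5 each), with a log2 fold change of 0.43.

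Oasl2, an oligoadenylate synthetase-like protein with ubiquitin-like domains, had counts of 13 to 33 in Chow and 22 to 49 in TM5614. Its normalised levels were 2.30, 2.60, 1.36, 2.38 and 3.04 CPM in Chow and 3.59, 2.85, 4.82, 3.54 and 5.03 CPM in TM5614. Only TM5614 replicate 2 fell within the Chow range, and the other 4 libraries exceeded it. Oasl2 thus had a log2 fold change of 0.76 ± 0.25 (SE), a fold of 1.70, and it missed the threshold (edgeR adjusted p = 0.109). It passed under limma-voom (adjusted p = 0.0228) and in edgeR without Chow replicate 2 and TM5614 replicate 2 (adjusted p = 0.0451), but in none of the 10 edgeR fits without a single library, whose adjusted p ran from 0.0851 to 0.266.

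Ifi44, an interferon-induced protein of less certain function, was the least abundant gene by count, with 9 to 45 counts per library. Levels were 1.82, 0.868, 1.15, 2.54 and 1.75 CPM in Chow and 2.15, 2.08, 2.18, 2.17 and 4.62 CPM in TM5614. The first 4 TM5614 libraries lay almost together and below Chow replicate 4, and TM5614 replicate 5 was well above all others. Its log2 fold change, 0.75 ± 0.34 (SE) with an edgeR adjusted p of 0.237, was 0.43 without TM5614 replicate 5 and 0.58 without Chow replicate 2. Its unadjusted p was under 0.05, and it passed the adjusted threshold in none of its 18 alternatives.

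Isg15 encodes the ubiquitin-like modifier that is conjugated to target proteins. It measured 3.76, 9.16, 5.74, 7.13 and 5.98 CPM in Chow and 7.04, 6.36, 5.27, 7.88 and 11.6 CPM in TM5614. Chow replicate 2 was above 4 of the 5 TM5614 libraries, and the groups overlapped over most of their range. The estimate for Isg15 was 0.27 ± 0.26 (log2, SE), with an edgeR adjusted p of 0.574, and became 0.06 when TM5614 replicate 5 was left out and 0.44 when Chow replicate 2 was left out.

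Usp18, the protease that cleaves ISG15 from its targets, had the largest estimate of the 9. Levels in Chow were 6.19, 6.08, 6.79, 6.97 and 9.84 CPM, and in TM5614 they were 10.3, 8.31, 13.6, 14.9 and 19.7 CPM. Chow replicate 5 was the highest control, and of the treated libraries only TM5614 replicate 2 lay below it. The means were 7.17 ± 1.54 CPM in Chow and 13.4 ± 4.40 CPM in TM5614 (SD, n = 5 each), a fold of 1.86. The log2 fold change was 0.90 ± 0.23 (SE), and the edgeR adjusted p was 0.0482, just under the threshold. The call was lost in 7 of the 10 fits without a single library, and held without Chow replicate 2, Chow replicate 5 or TM5614 replicate 2. Over those 10 fits the adjusted p ran from 0.024 to 0.125 and the log2 fold change from 0.72 to 1.05, and the estimate was above 0 in all 19 alternatives. Exons of Usp18 overlapped those of Gm44148, on the opposite strand, over 4.44% of their length, and the sources used here do not give the strand setting of the counting.

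**Figure D2:**
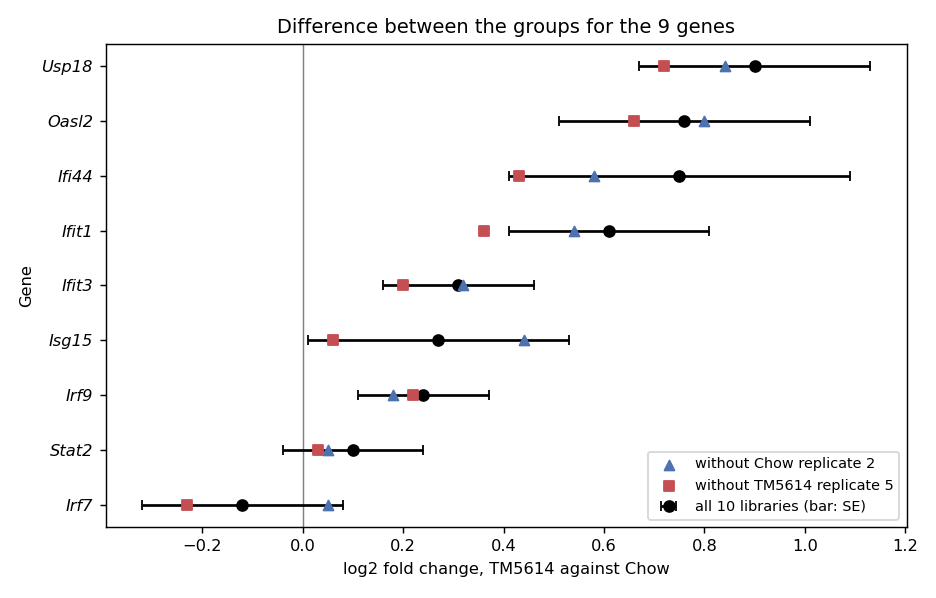
The horizontal axis gives the log2 fold change of TM5614 against Chow for each gene with all 10 libraries (black, bar: SE), without Chow replicate 2 (blue triangles) and without TM5614 replicate 5 (red squares). Usp18 has the largest estimate at 0.90, Irf7 crosses 0 when Chow replicate 2 is left out, and Ifit1 moves from 0.61 to 0.36 without TM5614 replicate 5.

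The genes were compared with each other per length, in FPKM as deposited. In Chow the order of mean levels was Irf7 (15.9 ± 4.16 FPKM, SD, n = 5), Irf9 (10.7), Isg15 (8.30), Stat2 (7.93), Ifit1 (5.72), Ifit3 (4.44), Usp18 (4.00), Oasl2 (0.736) and Ifi44 (0.551 ± 0.219). Neighbours in this order overlapped in their ranges except Stat2 and Ifit1, and Usp18 and Oasl2. In TM5614, Irf7 and Irf9 were again the highest, with Irf7 at 14.7 ± 3.62 FPKM and Irf9 at 12.6 ± 1.78 FPKM (SD, n = 5). Isg15 (9.96), Ifit1 (8.68), Stat2 (8.47), Usp18 (7.45) and Ifit3 (5.50) followed, and the levels of all these neighbours overlapped. Only the step from Ifit3 to Oasl2 (1.25 FPKM), which stood above Ifi44 (0.896 FPKM), separated neighbours in that group.

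Within the treated group the genes were high or low by animal. TM5614 replicate 5 was the highest of all 10 libraries for 7 of the 9 genes and above its group mean for all 9, by 0.48 on average on the log2 scale. TM5614 replicate 2 was the lowest of its group for 6 genes, with an average of -0.31. The averages of the other 8 libraries lay between -0.13 and 0.16. Over the 36 pairs of genes, the correlation of departures from the group mean across 10 libraries had a median r of 0.38 and was above 0 in 30 pairs. Without the 2 TM5614 libraries just named, the median r was 0.03 and 19 pairs were above 0. The genes of a library share its RNA, depth and composition, and no test was made of these correlations.

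**Figure D3:**
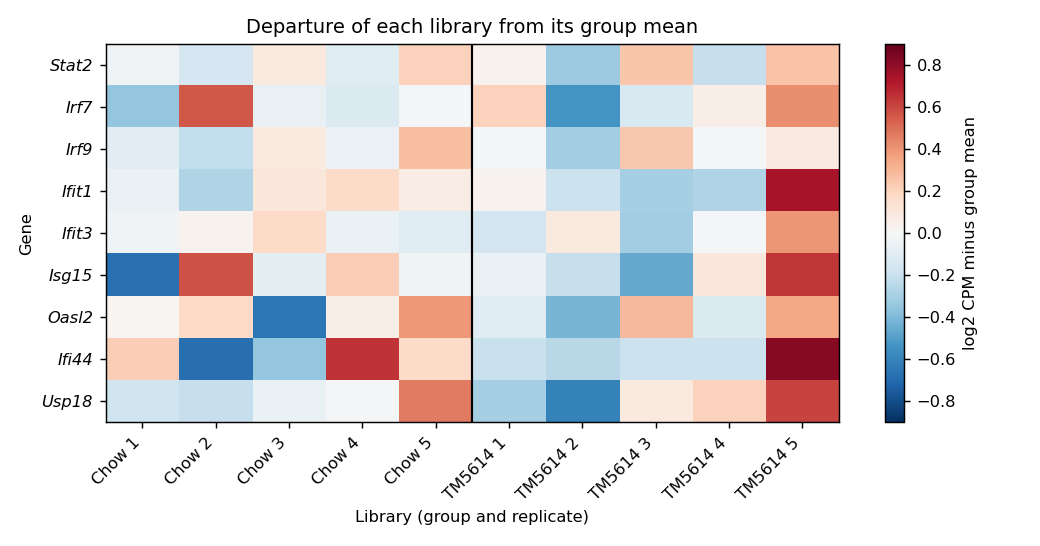
Colour gives the log2 CPM of each gene (rows) in each library (columns) minus its group mean, from blue below to red above, with a line between Chow and TM5614. The column of TM5614 replicate 5 is above 0 for all 9 genes, and that of TM5614 replicate 2 is below 0 for all but Ifit3.

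The pairs with the highest correlations were looked up after their values were known. Stat2 and Irf9, the subunits of ISGF3, had the highest r of all pairs, 0.87, and 0.86 without the 2 libraries. Irf7 and Isg15 gave 0.79 and 0.81, and Irf9 and Usp18 gave 0.75 and 0.71. Ifit1 and Ifi44 gave 0.78 and 0.60.

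The departures of Chow replicate 2 ran in different directions by gene. It was 0.56 above the Chow mean (log2 scale) for Irf7 and 0.57 above it for Isg15, and it was -0.27 for Ifit1 and -0.68 for Ifi44. Irf7 and Isg15 had the highest GC content of the set (55.4% and 52.8%), and Ifi44 and Ifit1 the lowest (40.4% and 43.3%). The other 5 genes did not follow that order. Stat2 (51.9%), Usp18 (50.9%) and Irf9 (50.4%) departed by -0.15, -0.21 and -0.22, and Oasl2 (49.4%) and Ifit3 (47.5%) by 0.18 and 0.03. After correction for GC content and length, the log2 fold change of Isg15 was 0.56, that of Ifit1 0.50 and that of Ifi44 0.57, against 0.27, 0.61 and 0.75 without it.

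Of 8591 other genes with a mean of at least 50 counts, the 8 whose departures were most like the average of the set were Mast3, Ciart, Igtp, Lpin1, Zfp276, Rhobtb1, Zbp1 and Foxo1, with r from 0.868 to 0.932 over 10 libraries. Igtp, an interferon-inducible GTPase, had an r of 0.915 (Spearman's rho 0.867) and 0.908 without TM5614 replicates 2 and 5. Zbp1, a sensor of Z-form nucleic acid, had an r of 0.88 but a rho of 0.248, and its r without those libraries was -0.0928. Mast3, a serine/threonine kinase, went from 0.932 to 0.496 on the same step, while Ciart, a repressor of the circadian clock, went from 0.924 to 0.821. These 8 were the highest of many candidates, so the values are a description only. Departures from group means leave out the difference between the groups. By edgeR, Ciart (log2 fold change -2.08), Rhobtb1 (-1.34) and Mast3 (-0.80) were called lower in TM5614. Lpin1 (-0.67), Foxo1 (-0.26), Zfp276 (-0.14), Igtp (0.07) and Zbp1 (0.09) did not pass.

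No gene upstream of the set passed the test. Of the 9 genes of ISGF3 and type I signalling, which include Stat2, Irf9 and Irf7 themselves, 0 passed in edgeR, DESeq2 or limma-voom. An unadjusted p under 0.05 was reached by 1 of the 9, against 20.4% of all genes. That gene was Tyk2, named after its value was seen, with an estimate of -0.37 ± 0.13 (SE; edgeR adjusted p = 0.132). Irf1, an interferon-inducible transcription factor, had an estimate of -0.21 ± 0.20 (SE; edgeR adjusted p = 0.582). Of the 6 interferon receptor genes 5 were tested, and 0 passed in edgeR, DESeq2 or limma-voom, with 0 at an unadjusted p under 0.05 and a median log2 fold change of 0.02.

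Transcripts of the interferons themselves were at the limit of detection. Of 12 interferon genes, 10 had no count in any library, Ifnb1 among them, and 0 passed the filter. Ifng, which encodes interferon gamma, had 1 count in Chow replicate 2 and 1 in TM5614 replicate 1. At this depth a difference in these genes was not detectable. Of the 12 tested genes that sense foreign nucleic acid, 0 passed in edgeR. An unadjusted p under 0.05 was reached by 2, both higher, against 20.4% of all genes in either direction and 8.69% higher. DESeq2 called Myd88 (with 8.11% of all genes called) and limma-voom called Myd88 and Dhx58 (with 12.5% of all genes called). In edgeR, Myd88 passed without Chow replicate 2, after GC correction and with library totals alone, Dhx58 passed without TM5614 replicate 2, and both passed without both of these libraries. Ddx58, which encodes the RNA sensor RIG-I, differed by 0.08 ± 0.23 on the log2 scale (SE), with an edgeR adjusted p of 0.866, and by -0.10 without Chow replicate 2, so no direction can be given for it.

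A wider list of 56 type I interferon-stimulated genes that are not among the 9 held 44 tested genes, of which 3 rose in TM5614 (Rsad2, Cmpk2 and Tor3a) and 0 fell by edgeR. That is 6.82%, against 1.73% of all genes that were higher and 4.5% called in either direction. At an unadjusted p under 0.05 there were 15 of the 44, with 10 higher and 5 lower, against 8.69% and 11.7% of all genes. In 3 of the 44 every TM5614 library lay above every Chow library and in 1 below, against 4.07% and 4.87% of all genes. Estimates were above 0 for 33 of the 44, against 51.5% of all genes. The median was 0.18, which became 0.09 without TM5614 replicate 5 and 0.28 without TM5614 replicate 2. Without Chow replicate 2 and TM5614 replicate 2, 8 rose and 2 fell, of 43 tested, where 4.81% of all genes were higher and 6.32% lower. Limma-voom gave 9 and 2, where 5.25% of all genes were higher and 7.25% lower. Parp10, an ADP-ribosyltransferase named here after its values were seen, had an estimate of -0.75 ± 0.20 (SE; edgeR adjusted p = 0.0613) and was among the genes that fell in both of those settings. It also fell in DESeq2, after GC correction and in edgeR without Chow replicate 2 alone. Without TM5614 replicate 2 alone, 4 rose (Rsad2, Dtx3l, Tor3a and Helz2) and 0 fell, of 45 tested. In that setting 1.34% of all genes were higher and 1.99% lower.

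Rsad2 encodes viperin, an antiviral enzyme that makes a chain-terminating nucleotide. It measured 14.6, 12, 20.8, 18.9 and 15.8 CPM in Chow and 36.6, 44.9, 32.7, 34.6 and 41.0 CPM in TM5614. The lowest treated library was well above the highest control. The fold was 2.32, with a log2 fold change of 1.21 ± 0.16 (SE) and an edgeR adjusted p of 0.00141, and the call held in all 19 alternatives. TM5614 replicate 5, the highest library for most of the 9 genes, was not the highest for Rsad2, and TM5614 replicate 2, the lowest for most, was.

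Cmpk2, a mitochondrial nucleotide kinase, lies next to Rsad2 on chromosome 12 (26469204-26479837 and 26442746-26456452, on opposite strands). It gave 4.12, 1.93, 6.79, 3.64 and 4.42 CPM in Chow and 7.90, 9.08, 8.60, 9.71 and 10.4 CPM in TM5614, again with no overlap. Cmpk2 rose by 1.13 ± 0.26 on the log2 scale (SE), with an edgeR adjusted p of 0.0288. The call was lost in 8 of the 10 fits without a single library, where the adjusted p went up to 0.0761, and held without Chow replicate 2 or Chow replicate 3.

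Tor3a, an AAA ATPase of the endoplasmic reticulum, measured 2.91, 3.86, 1.25, 1.58 and 3.31 CPM in Chow and 13.9, 12.3, 13.5, 16.7 and 7.29 CPM in TM5614. All treated libraries were above all controls, and TM5614 replicate 5 was here the lowest of its group. Tor3a rose by a log2 fold change of 2.27 ± 0.30 (SE), a fold of 4.82, with an edgeR adjusted p of 0.00153, and the call held in all 19 alternatives.

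Mx1, the gene of a GTPase, had 5 to 15 counts in Chow and 8 to 35 in TM5614. Its estimate of 1.06 ± 0.46 (log2, SE) did not pass, at an edgeR adjusted p of 0.227. TM5614 replicate 2 had 4.54 CPM of Mx1, more than any other library, and the estimate was 0.56 without it and 0.41 without both replicates 2. Mx2, which the annotation lists as a polymorphic pseudogene, gave 0.19 ± 0.24 (SE; edgeR adjusted p = 0.666). In the list of 6 genes of ISG15 conjugation, 1 rose (16.7%, against 1.73% of all genes that were higher), which was Usp18. The enzymes of conjugation on that list did not pass, with log2 fold changes of 0.45 for Herc6, 0.20 for Trim25, -0.14 for Ube2l6 and -0.31 for Uba7.

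**Figure D4:**
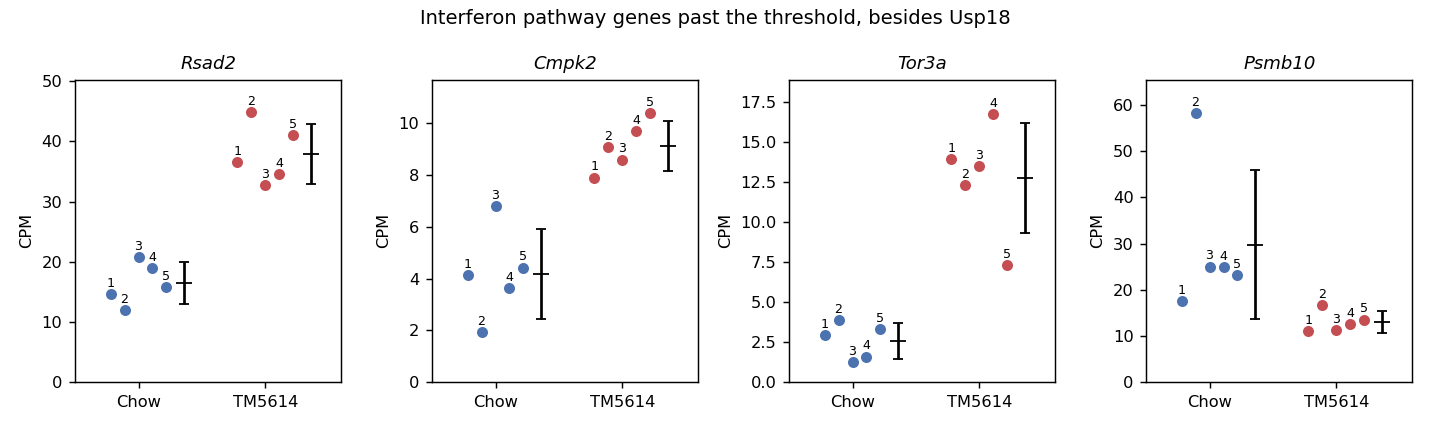
The panels plot TMM-normalised CPM on linear axes from 0 for the pathway genes outside the set of 9 that passed the test, 1 numbered point per library, with mean and SD. TM5614 libraries (red) lie above all Chow libraries (blue) for Rsad2, Cmpk2 and Tor3a and below them for Psmb10, where Chow replicate 2 reached 58.3 CPM.

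Targets of interferon gamma overlap with those of the type I route. Of 21 tested, 0 passed in edgeR. At an unadjusted p under 0.05 there were 3, all higher, against 20.4% of all genes in either direction and 8.69% higher. Estimates above 0 were counted in 17, against 51.5% of all genes, with a median of 0.22. Without Chow replicate 2 these were 13 and 0.09, after GC correction 14 and 0.10, and without TM5614 replicate 5, 15 and 0.09. DESeq2 called Cxcl10 (with 8.11% of all genes called) and limma-voom called Cxcl10, Irgm1 and Ifi47 (with 12.5% of all genes called). EdgeR called Irgm1 with a replicate block and without both replicates 2. Cxcl10, a chemokine for T cells, measured 1.64 ± 0.581 CPM in Chow and 3.00 ± 0.448 CPM in TM5614 (SD, n = 5 each). Every TM5614 library lay above every Chow library for Cxcl10, as for 4.07% of all genes. Its log2 fold change of 0.90 ± 0.26 (SE) missed the threshold (edgeR adjusted p = 0.0823). Gbp2, a guanylate-binding protein, had an estimate of 0.13 ± 0.29 (SE; edgeR adjusted p = 0.814), which was -0.02 without Chow replicate 2.

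Genes of MHC class I presentation, also inducible by interferon, had estimates on the other side of 0. All 16 tested genes were below 0, against 48.5% of all genes, with a median of -0.34. By edgeR 1 fell (6.25%, against 2.77% of all genes that were lower), which was Psmb10. DESeq2 called 3 of the 16 lower, limma-voom 4 and edgeR without Chow replicate 2 called 3, where 5.03%, 7.25% and 5.61% of all genes were lower, and 0 passed without Chow replicate 3 or 4 or without TM5614 replicate 1, 3, 4 or 5. The count of 16 was the same without Chow replicate 2 and after GC correction, with medians of -0.29 and -0.23. At an unadjusted p under 0.05 there were 9 of 16, against 11.7% of all genes in that direction. Psmb10, a subunit of the immunoproteasome, measured 17.6, 58.3, 25.0, 24.9 and 23.2 CPM in Chow and 11.1, 16.7, 11.2, 12.5 and 13.5 CPM in TM5614. No treated library reached the lowest control, as for 4.87% of all genes, and Chow replicate 2 was far above the other controls. Psmb10 changed by -1.20 ± 0.29 on the log2 scale (SE), with an edgeR adjusted p of 0.0383, and without Chow replicate 2 it was -0.81 (edgeR adjusted p = 0.00424). The call was lost in 6 of the 10 fits without a single library, those without Chow replicate 3 or 4 or without TM5614 replicate 1, 3, 4 or 5.

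B2m, the light chain of class I molecules, was at 1689 ± 242 CPM in Chow and 1434 ± 47.4 CPM in TM5614 (SD, n = 5 each). Its log2 fold change was -0.24 ± 0.11 (SE), and although the groups did not overlap the gene did not pass the test (edgeR adjusted p = 0.247). Of the 16 tested genes of MHC class I presentation, 5 had every TM5614 library below every Chow library, B2m and Psmb10 among them. The share of all genes was 4.87%. Of 9 tested negative regulators of interferon signalling, 1 passed (11.1%, against 4.5% of all genes), again Usp18, and the median of that list was -0.03. Irf2 was called lower by limma-voom and by edgeR without Chow replicate 2 and without both replicates 2.

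**Figure D5:**
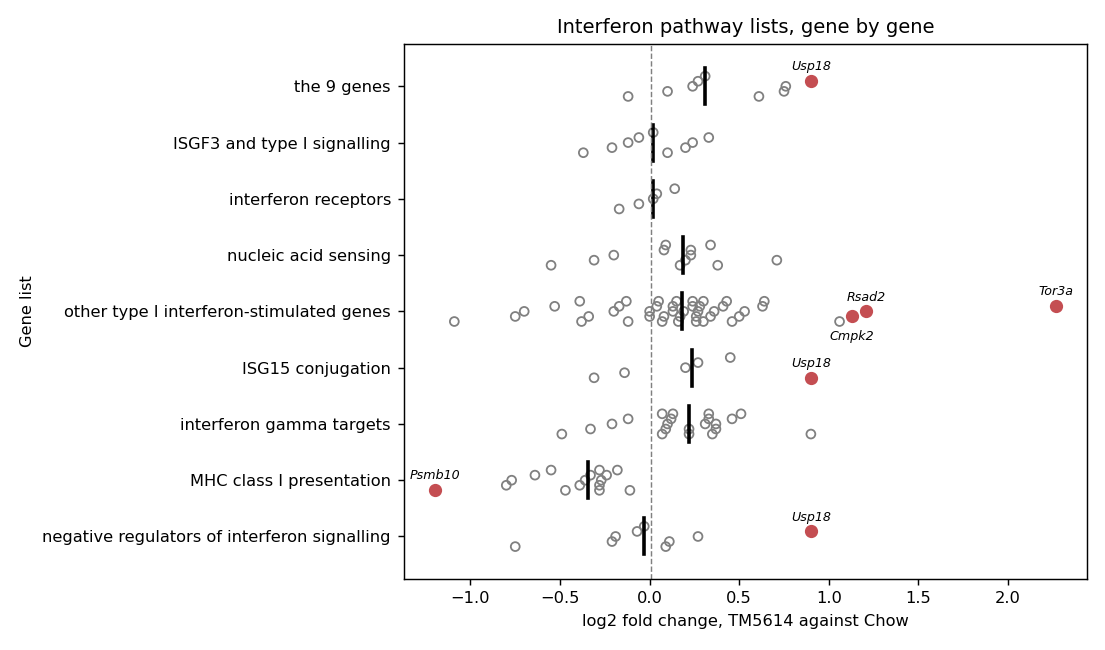
Each row is a gene list and each point a tested gene, placed by its log2 fold change of TM5614 against Chow, with genes past an adjusted p of 0.05 filled and named, a black bar at the list median and a dashed line at the median of all genes tested. The 9 genes have a median of 0.31, the upstream signalling genes lie about 0, and all 16 genes of MHC class I presentation lie below it.

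In whole liver, fewer cells of a type and less RNA per cell cannot be told apart, so markers of the cells that could carry these transcripts were summed. The 12 Kupffer cell markers ranged from 86.2 to 276 CPM in Chow and from 86.5 to 183 CPM in TM5614. All 12 had estimates below 0 (median -0.45), against 48.5% of all genes. Of the 12, 0 passed in edgeR, DESeq2 or limma-voom, and 0 had an unadjusted p under 0.05. Chow replicate 2 had the highest sum, and without it the median was -0.26, as it was after GC correction. The median was farther from 0 in other edgeR fits, at -0.65 without Chow replicate 1, -0.60 without Chow replicate 3 and -0.66 without TM5614 replicate 3. In those fits 3, 2 and 1 of the 12 had an unadjusted p under 0.05. Under limma-voom 4 of the 12 were above 0 (median -0.11), and 3 were above 0 in edgeR without Chow replicate 5. Of 13 lymphocyte markers 0 passed the filter, with summed levels of 3.45 to 8.49 CPM in Chow and 2.98 to 7.80 CPM in TM5614. The 7 markers of plasmacytoid dendritic cells, a main source of interferon, summed to 25.2 to 36.0 CPM in Chow and 24.4 to 37.5 CPM in TM5614. Only 1 of them was tested, Tcf4, with an estimate of -0.16. Tcf4 alone made up most of the sum, at 24.6 to 35.7 CPM in Chow and 23.7 to 29.3 CPM in TM5614. Cox6a2, also on the list, had 7.66 CPM in TM5614 replicate 2, the library with muscle counts, and at most 0.158 CPM in any other. The sum therefore says little about these cells.

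Markers of monocytes and neutrophils, 9 of 10 of them listed, summed to 10.9 to 29.0 CPM in Chow and 16.1 to 31.9 CPM in TM5614. Of the 9 markers of liver endothelium 0 passed in edgeR, with a median of 0.14, which was 0.03 without Chow replicate 2. Their summed levels were 109 to 187 CPM in Chow and 109 to 194 CPM in TM5614. Of the 9 stellate cell markers 0 passed in edgeR. At an unadjusted p under 0.05 there were 3 of them, all higher, against 20.4% of all genes in either direction and 8.69% higher. Their median was 0.22, with summed levels of 228 to 410 CPM in Chow and 347 to 625 CPM in TM5614. Limma-voom called Dcn higher, and edgeR called Hgf higher with a replicate block and without both replicates 2. The highest estimate on that list was that of Des, 4.47. Des measured 258 CPM in TM5614 replicate 2, the library with muscle counts, and at most 7.57 CPM in any other, and the summed levels include it. Without TM5614 replicate 2 the highest estimate of any gene on the list was 0.97. No marker of these cell types was at 0 in every library. The part of these cells in the levels of the 9 genes was not tested.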

How the data were processed

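Polyadenylated RNA from liver was sequenced as 75-base single-end reads, and the authors aligned the reads to mm10 with STAR. The deposited counts of reads per gene, whole numbers for 24421 genes in 10 libraries, were the input of every test. HOMER is named in the submitters' processing notes, but which tool counted the reads, its strand setting and the annotation are not given in the sources used here. The deposited FPKM values, which the authors scaled by gene length and library size, were used only to compare levels between genes. The deposited regularised log values and the authors' own comparison (fold changes and p-values) were not used.

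Groups came from the sample titles (5 Chow, 5 TM5614). Counts were filtered with filterByExpr, normalised by TMM and tested in edgeR 4.0.16 (R 4.3.3) by the two-sided quasi-likelihood test without covariates, with Benjamini-Hochberg adjustment over all 11092 genes tested and a threshold of 0.05. CPM used TMM-scaled totals, and departures from group means used log2 CPM with a prior count of 2. Totals of 6398335 to 10874955 set the precision, and no 2 libraries of a group agreed within sampling noise. Alternatives were DESeq2 1.42.0, limma-voom 3.58.1 with quality weights, RLE factors, unscaled library totals, the whole table unfiltered, a minimum of 10 counts per library, a replicate block, a spline correction for GC content and length (available for 96.7% of the genes tested), and leaving out each library. Leaving out Chow replicate 2 and TM5614 replicate 2 together was added after the data were seen, as were the alternatives for genes outside the 9.

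The 9 genes and the lists were chosen with earlier results of these data known. Named were the 9, each list's genes past the threshold, its defining genes (Irf1, Ifnb1, Ifng, Mx1, Mx2, Rsad2, Ddx58, Cxcl10, Gbp2 and B2m), and the 8 genes most like the set. One further gene of that rule is not reported here. Any other gene was named after its values were seen. Promoters came from the RefSeq table of GRCm38.p6 (Usp18 and Tor3a have no entry), gene positions from GENCODE.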

Additional observations from a re-analysis of the deposited data

Results flagged for a closer look

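In 21 genes, each library was compared with the other 4 of its group, and in 6 of 42 groups the highest or lowest library lay farther from its nearest neighbour than Dixon's 95% limit allows. Chance flags about 1 in 20 groups, or 2.1 of 42. For 2 of the 9 genes the library was TM5614 replicate 5, with 37.4 CPM of Ifit1 against 18.0 to 22.7 in the other treated mice, and 4.62 CPM of Ifi44 against 2.08 to 2.18. Among controls, Chow replicate 5 had 9.84 CPM of Usp18, where the remaining 4 had 6.08 to 6.97. Chow replicate 2 held 58.3 CPM of Psmb10, against 17.6 to 25.0 in the other controls, and 13.9 CPM of Ddx58, against 29.9 to 32.2. Chow replicate 1 held 2107 CPM of B2m, and the other 4 held 1516 to 1686.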

How the results depend on the processing

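The log2 fold changes of the 9 genes and 12 others were recomputed under 19 alternatives, 396 values in all. Of these, 361 kept both their direction and their side of the threshold, 22 kept the direction but no longer passed, 4 passed only in the alternative and 9 turned direction. The 499 genes called became 900 in DESeq2, 1386 in limma-voom, 730 after GC and length correction and 1230 without Chow replicate 2 and TM5614 replicate 2. Leaving out 1 library gave 235 (without TM5614 replicate 3) to 1031 (without Chow replicate 2) calls, with 293 without Chow replicate 3, 331 without TM5614 replicate 1 and 259 without TM5614 replicate 4. Of the 9 genes, 2 passed in limma-voom and in the fit without Chow replicate 2 and TM5614 replicate 2, 0 without the filter, where 17291 genes were tested and the adjusted p of Usp18 was 0.0683, and 0 to 1 in the fits that left out 1 library. Irf7 turned from -0.12 to 0.09 in limma-voom, 0.04 with GC correction, 0.05 without Chow replicate 2 and 0.17 without both replicates 2, and the fits without 1 library ran from -0.23 to 0.05. Ddx58 turned to -0.03 in limma-voom and -0.10 without Chow replicate 2 (-0.10 to 0.20 without 1 library). Gbp2 turned to -0.02 without Chow replicate 2, 0.00 without Chow replicate 3 and -0.13 without both replicates 2 (-0.02 to 0.36 without 1 library). The cause of these moves was not tested.

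Same-numbered mice are not stated to be related, and the correlations of their departures ran from 0.03 to 0.32, with 2 of 5 treated libraries closest to their own number, so the numbers were not taken to pair the mice. With a replicate block 555 genes were called, and 1 of the 9, Usp18 (log2 fold change 0.87, edgeR adjusted p = 0.0151). With 9 to 49 counts per library, Ifi44 and Oasl2 are the genes of the set whose values depth limits most, and Ifi44 was not tested when every library needed 10 counts.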

Other observations

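The repeat of GAAA searched for in the promoters was also looked for in the other lists. Of 42 other type I interferon-stimulated genes with a promoter window, 19 held it within the 250 bases before a start site, or 45.2%, against 3.46% of all genes with a window. Bst2, Ifitm2, Oas1a, Oas3 and Slfn5 were among them. Of the genes that rose, Rsad2 held it and Cmpk2, its neighbour on chromosome 12, did not in its own window, while Tor3a and Usp18 have no entry in the promoter table. Of 17 genes of MHC class I presentation with a window, 3 held it (B2m, H2-T22 and H2-T23), or 17.6%. Promoter windows of related genes share sequence, so these genes are not independent draws, and no test was made.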
